A study of Mus musculus with 40 samples.

Results

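WT FrE libraries, made from immature B cells, were set against WT FrB libraries, made from pro-B cells. They were chosen by the fraction letter and genotype in their labels and paired by mouse number, which gave 10 of the 40 libraries of the series, 5 of each fraction. All 10 came from bone marrow chimeras: lethally irradiated CD45.1 mice that had received bone marrow of WT donors, taken 8 weeks after the transfer. The other WT libraries were 5 of FrC and 5 of FrD from the same mice, and the remaining 20 came from chimeras of donors homozygous for P198A in the zinc transporter ZIP7. Per the labels' protocols, FrE was gated as B220+ CD43- IgM+ IgD- and FrB as B220+ CD43+ CD24+ BP1-, both on CD45.1- CD45.2+ donor cells, and no IgM or IgD gate is named for FrB. Each library held the RNA of 100 cells sorted from 1 mouse, amplified with Smart-seq2, which copies polyadenylated RNA, and ERCC spike-in RNA had been added on lysis. The cells developed in irradiated hosts, so they represent B cell formation during and after reconstitution and not in an undisturbed marrow.

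Pro-B cells rearrange the immunoglobulin heavy chain gene with the RAG recombinase while IL-7 from stromal cells keeps them dividing. A successful heavy chain is first displayed with a surrogate light chain, built by the Vpreb and Igll1 proteins, as the pre-B cell receptor. After light chain rearrangement the cell carries IgM with its CD79 signalling chains and begins to display the receptors and MHC class II molecules of mature B cells. FrE against FrB is therefore the net change over the marrow part of this pathway.

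Endogenous counts ran between 5734929 and 23299203 in FrE and between 12514009 and 16892841 in FrB. FrE of mouse 7 was the shallowest library, and 28.1% of its detected genes had only 1 to 9 counts, against 6.8% to 14.7% in the other FrE libraries and 6.6% to 8.4% in FrB. Endogenous over ERCC counts, as a log2 ratio, stood at 8.80 ± 0.40 in FrE and 10 ± 0.87 in FrB (SD, n = 5 each), lower in FrE in 5 of 5 mice, a mean difference of -1.21 ± 0.71 (SD of the differences; exact paired permutation test, two-sided, p = 0.0625, adjusted 0.0938 over 3 measures). The number of genes detected was 10833 ± 174 in FrE and 11831 ± 135 in FrB (SD, n = 5 each), again lower in 5 of 5 mice, by 998 (exact paired permutation p = 0.0625, adjusted 0.0938). The 50 highest genes held 20.39% ± 1.27 of the counts in FrE and 17.66% ± 2.1 in FrB, higher in FrE in 4 of 5 mice (SD, n = 5 each; exact paired permutation p = 0.125, adjusted 0.125). With 5 pairs such a test cannot go below 0.0625, and unpaired exact permutation tests gave adjusted p-values of 0.0397, 0.0238 and 0.0397 for these measures in that order. In libraries of pooled cells, fewer cells of a type and less RNA per cell cannot be told apart.

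The genes behind the gates fitted the labels in part. Levels are given as CPM, a gene's counts relative to its library's TMM-scaled size, and values of single libraries follow the order of mice 1, 2, 3, 6 and 7. Spn, which encodes CD43, had 1.24, 1.21, 27.6, 5.76 and 1.99 CPM in FrE, against 31.5, 16.9, 24.7, 21.1 and 57.8 CPM in FrB. FrE of mouse 3 lay inside the FrB range, and the difference did not pass (log2 fold change -3.10 ± 1.13, SE, edgeR quasi-likelihood adjusted p = 0.277). Enpep, which encodes BP-1, averaged 1.90 ± 2.44 CPM in FrE and 3.10 ± 3.08 CPM in FrB, against 88.1 CPM in FrC, so FrB was low in the antigen its gate leaves out. Cd24a did not differ beyond its spread, with 2921.8 ± 1242.2 CPM in FrE and 2310.4 ± 195.7 CPM in FrB (SD, n = 5 each, log2 fold change 0.24 ± 0.31, adjusted p = 0.815). The genes of IgM and IgD are not analysed here.

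Of 10524 genes tested, 39 rose (0.371%) and 14 fell (0.133%) in FrE relative to FrB at a Benjamini-Hochberg adjusted p under 0.05 of edgeR's quasi-likelihood test with mouse as a block. Of the 39 genes that rose, 10 belong to the list of surface genes of immature and mature B cells, among them Cd40 and Ms4a1, and 1, Bank1, to the BCR signalling list. Those that fell included Arpp21, the erythroid gene Rhag and the receptor gene Gfra2, the recombination genes Rag2 and Dntt, and the surrogate light chain gene Vpreb2. The direction held in 5 of 5 mice for 37 of the 39 higher genes and for all 14 lower genes. The median log2 fold change was 2.78 over the higher calls and -0.28 over all genes tested. Before adjustment 1348 genes had p under 0.05, of them 510 higher and 838 lower, and 355 genes (3.37%) had all FrE libraries above all FrB libraries while 513 (4.87%) had all FrE libraries below. With all 20 WT libraries in the fit, which also changed the genes tested to 11439, 164 genes (1.43%) rose and 168 (1.47%) fell. The number of calls rested on single mice, with 126 higher (1.19%) and 80 lower (0.756%) without mouse 7, and 0 in either direction by edgeR without mouse 3, where 926 genes had an unadjusted p under 0.05. With scaling to ERCC totals 15 genes rose and 2011 fell, since the median of all genes then stood at -1.66, and none of the 52 called genes described here changed its sign there or in any of the 15 other settings, wherever a value could be fitted. The index names in the labels put mice 1, 3 and 7 apart from mice 2 and 6: with mice 1, 3 and 7 alone edgeR called 0 genes (871 at an unadjusted p under 0.05), and with mice 2 and 6 alone it called 10 higher and 52 lower. The index name behind this split also differed by fraction within each mouse, so its effect and that of the fraction cannot be told apart.

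**Figure D1:**
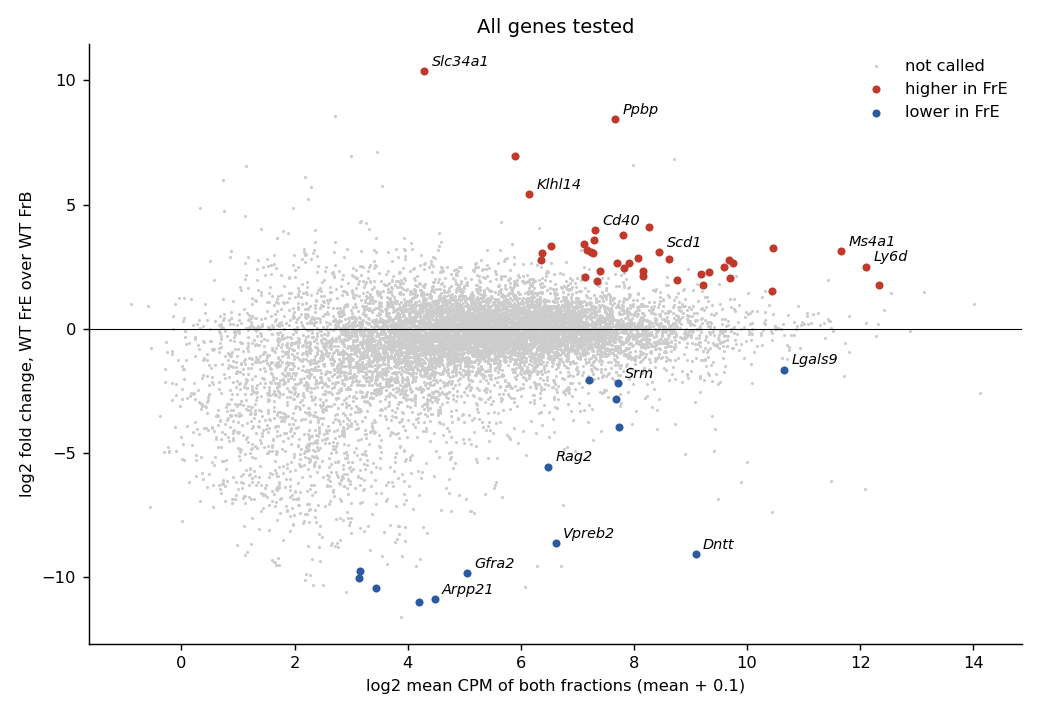
Log2 fold change of FrE over FrB (vertical) against the log2 mean CPM of both fractions (horizontal) for the 10524 genes tested, with 39 genes called higher in FrE in red, 14 called lower in blue and the rest in grey. The called genes that fell by the most lie at low mean CPM, where 5 of them had a single count over the 5 FrE libraries.

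Surface receptors of immature and mature B cells were the group with the most genes that rose. Of the 30 genes in that list, all of them tested, 10 rose and 0 fell (0.371% and 0.133% over all genes). In 17 of them all FrE libraries lay above all FrB libraries (3.37% over all genes). The median log2 fold change was 1.57, against -0.28 over all genes. Ms4a1, which encodes CD20 (ENSMUSG00000024673, chromosome 19, 11249675 to 11266241, minus strand), had 9270.8, 5387.7, 6338.0, 5057.8 and 3153.6 CPM in FrE, against 845.5, 642.2, 442.8, 810.3 and 549.3 CPM in FrB. The lowest FrE library, that of mouse 7, still lay well above the highest FrB library. The log2 fold change was 3.12 ± 0.31 (SE, adjusted p = 0.00768).

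Cd40, the receptor for T cell help (ENSMUSG00000017652, chromosome 2, 165055627 to 165072948, plus strand), had 425.2, 183.3, 311.8, 278.7 and 292.0 CPM in FrE, against 40.7, 10.8, 12.6, 16.6 and 24.8 CPM in FrB. Mouse 1 was the highest in both fractions and the groups did not overlap (log2 fold change 3.96 ± 0.38, SE, adjusted p = 0.00768). Cd22, an inhibitory lectin that damps receptor signals, had 268.6, 214.4, 480.4, 740.4 and 657.8 CPM in FrE, against 75.3, 31.2, 78.4, 66.7 and 63.1 CPM in FrB (log2 fold change 2.84 ± 0.37, adjusted p = 0.0154). Mouse 2 was lowest in both fractions. Tnfrsf13c, the receptor through which the survival factor BAFF acts, had 783.4 to 1896.1 CPM in FrE and 150.1 to 321.4 CPM in FrB (log2 fold change 2.47 ± 0.34, adjusted p = 0.0198). Cd83, an activation antigen that stabilises MHC class II at the surface, was even across FrE, at 356.8 ± 43.0 CPM, and stood at 60.9 ± 23.5 CPM in FrB (SD, n = 5 each, log2 fold change 2.66 ± 0.37, adjusted p = 0.0198).

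The other list members that rose were Fcer2a, the low-affinity IgE receptor CD23 (log2 fold change 3.43 ± 0.50, SE, adjusted p = 0.0252, but 0.103 with all 20 WT libraries and 0.0589 with these and no block), Cd72 (2.04 ± 0.32, adjusted p = 0.0351), Ltb, a lymphotoxin chain (1.77 ± 0.30, adjusted p = 0.0427), Siglecg (2.27 ± 0.39, adjusted p = 0.0475) and Fcmr, the Fc receptor for IgM (1.53 ± 0.27, adjusted p = 0.0486). Each of these was higher in FrE in 5 of 5 mice, and Fcer2a and Ltb were named after their values were seen. Btla, an inhibitory receptor outside the list, had 353.4 to 739.9 CPM in FrE and 78.9 to 121.1 CPM in FrB (2.34 ± 0.34, adjusted p = 0.0223). Ly6d, counted with pro-B and progenitor genes because it marks B-committed progenitors, rose, with 4462.6 to 10624.1 CPM in FrE and 892.2 to 1576.5 CPM in FrB (2.50 ± 0.33, adjusted p = 0.0161).

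**Figure D2:**
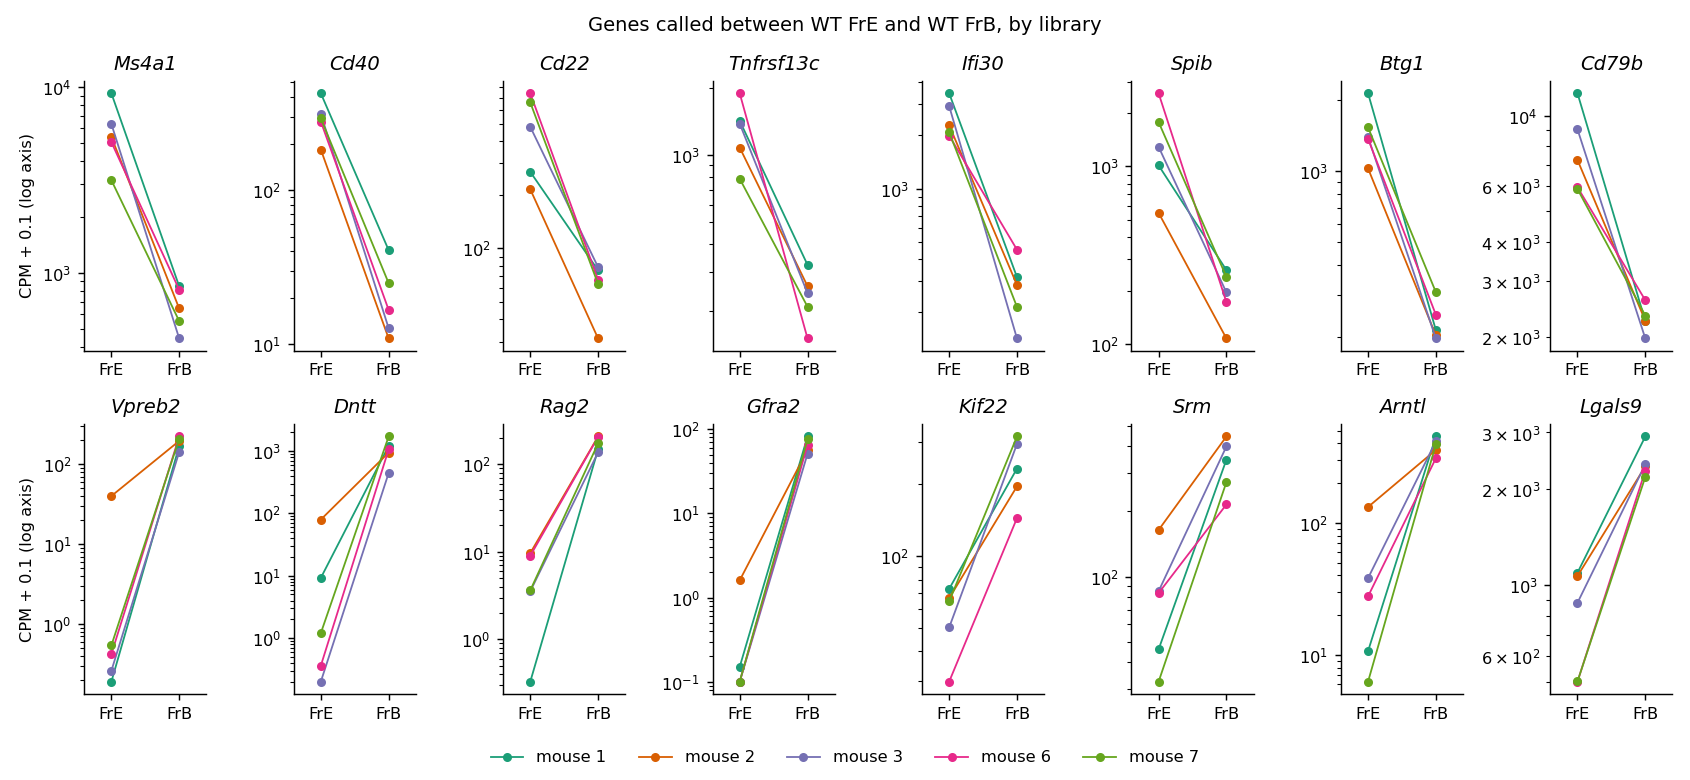
CPM + 0.1 on a log axis for 16 called genes in FrE (left) and FrB (right), with a line for each of the 5 mice. In the upper row FrE lies above FrB in every mouse, with 3153.6 to 9270.8 CPM of Ms4a1 against 442.8 to 845.5 CPM, and in the lower row it lies below, with mouse 2 the highest FrE library for Vpreb2, Dntt and Gfra2.

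MHC class II presentation genes all pointed upward, although few passed singly. All 17 members were tested and all 17 had a log2 fold change above 0, 2 rose (0.371% over all genes) and 7 had all FrE libraries above all FrB libraries (3.37% over all genes), with a median of 1.05 (-0.30 with ERCC scaling, where all genes had a median of -1.66). Besides Cd40, the called gene was Ifi30, the lysosomal thiol reductase that unfolds antigens for class II loading (ENSMUSG00000031838, chromosome 8, 70762774 to 70766663, minus strand). It had 3441.2, 2271.5, 2915.8, 1987.0 and 2076.4 CPM in FrE, against 316.5, 285.8, 142.7, 452.0 and 214.9 CPM in FrB (log2 fold change 3.26 ± 0.38, SE, adjusted p = 0.0135). Every FrE library lay above every FrB library by a wide margin.

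Cd74, the invariant chain, had 17681.6, 16767.3, 13692.0, 12707.1 and 6014.1 CPM in FrE, against 4107.1, 5847.5, 2966.0, 5449.1 and 4838.7 CPM in FrB. The groups did not overlap, but FrE of mouse 7 came close to FrB of mouse 2, and the change did not pass (log2 fold change 1.5 ± 0.33, SE, adjusted p = 0.0902, and 1.76, adjusted p = 0.025, without mouse 7). H2-DMb2, a chain of the peptide exchange factor DM, stood at 461.6 to 1054.6 CPM in FrE and 164.4 to 329.3 CPM in FrB (1.55 ± 0.30, adjusted p = 0.0624). The class II chain genes H2-Aa, H2-Ab1 and H2-Eb1 were higher in FrE in 4 of 5 mice each, at log2 fold changes of 0.92, 0.64 and 0.72 (adjusted p = 0.362, 0.495 and 0.490), and in each of them mouse 7 ran the other way, as all 3 genes did with ERCC scaling (-0.43, -0.73 and -0.63). Ciita, the master regulator of class II transcription, had 16.6 to 107.3 CPM in FrE and 3.73 to 17.5 CPM in FrB (2.16 ± 0.76, adjusted p = 0.256).

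Promoters of class II genes are shown because the log2 fold changes of the list all lay above 0 and class II genes share a known element, the Y box. H2-Aa, H2-Eb1 and H2-DMb2, printed here, were not called themselves. The 250 bases before the annotated start are from RefSeq, build GRCm38.p6, printed 5′ to 3′ on the strand of the gene, with capitals for the Y box core GATTGG in either orientation (CCAATC on the other strand).
H2-Aa (chr17:34287824-34288073, minus strand): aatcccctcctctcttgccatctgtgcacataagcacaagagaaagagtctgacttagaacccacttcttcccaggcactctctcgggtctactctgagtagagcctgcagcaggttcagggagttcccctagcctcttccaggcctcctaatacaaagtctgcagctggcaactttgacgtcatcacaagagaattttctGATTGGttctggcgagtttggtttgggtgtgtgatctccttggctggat
H2-Eb1 (chr17:34305617-34305866, plus strand): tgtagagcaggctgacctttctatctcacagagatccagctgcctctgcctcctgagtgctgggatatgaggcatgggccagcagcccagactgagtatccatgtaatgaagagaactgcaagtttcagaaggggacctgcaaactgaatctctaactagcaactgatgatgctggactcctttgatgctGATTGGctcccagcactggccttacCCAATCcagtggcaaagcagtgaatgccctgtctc
H2-DMb2 (chr17:34144999-34145248, plus strand): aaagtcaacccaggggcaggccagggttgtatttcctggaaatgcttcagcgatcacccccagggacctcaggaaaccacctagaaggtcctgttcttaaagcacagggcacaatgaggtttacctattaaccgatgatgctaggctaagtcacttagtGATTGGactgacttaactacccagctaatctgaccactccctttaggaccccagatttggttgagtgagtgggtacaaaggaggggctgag
The core began 49 bases before the start in H2-Aa, 60 and 35 bases before it in H2-Eb1 and 91 bases before it in H2-DMb2. Over the 300 bases that also take in 50 after the start, 8 of the 11 class II list members with a promoter in RefSeq held it (72.7%), against 54.1% in the G2/M and mitosis list (20 of 37), 48.6% in the G1/S and DNA replication list (17 of 35), 22.0% of the promoters of all genes tested and 16.6% of all promoters. The core contains the letters of the general CCAAT box read on the other strand, so every match to it is also a CCAAT match, and CCAAT itself was in 40.0% of the promoters of all genes tested. Such matches describe the sequence and not a bound factor or a cause.

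Among transcription factors of later B cells, Spib and Klf2 rose. All 22 members of the list were tested, 2 rose and 0 fell (0.371% and 0.133% over all genes), 8 had all FrE libraries above all FrB libraries (3.37% over all genes), and the median log2 fold change was 1.35 (-0.02 with ERCC scaling). Spib, an ETS factor that works with PU.1 in receptor signalling (ENSMUSG00000008193, chromosome 7, 44525993 to 44532071, minus strand), had 1013.7, 547.5, 1289.1, 2581.8 and 1777.4 CPM in FrE, against 260.4, 107.3, 194.9, 171.9 and 238.5 CPM in FrB. Mouse 2 was lowest in both, with no overlap between the fractions (log2 fold change 2.78 ± 0.36, SE, adjusted p = 0.0154). Klf2, a factor linked to quiescence and exit from tissue, had 185.5, 150.5, 327.3, 299.5 and 1019.8 CPM in FrE, against 54.0, 41.6, 59.0, 63.4 and 69.3 CPM in FrB (2.44 ± 0.41, adjusted p = 0.0455). Its highest value came from the shallow library of mouse 7, and without mouse 7 the change was 2.08 (adjusted p = 0.0166). Irf8, Egr1 and Foxp1 had log2 fold changes of 1.75, 2.83 and 1.44 without passing (adjusted p = 0.074, 0.0945 and 0.115). Pax5, the factor that holds B cell identity, had 131.9 to 862.1 CPM in FrE and 61.2 to 124.6 CPM in FrB (2.01 ± 0.40, adjusted p = 0.0672). Nfkbid, an atypical inhibitor of NF-κB outside the list and named after its values were seen, rose by 3.19 ± 0.52 (adjusted p = 0.0386).

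Quiescence genes included one of the steadiest changes. Btg1, an antiproliferative gene (ENSMUSG00000036478, chromosome 10, 96617006 to 96622809, plus strand), had 2130.1, 1026.0, 1391.2, 1368.4 and 1528.7 CPM in FrE, against 213.1, 202.6, 196.6, 247.5 and 308.3 CPM in FrB (log2 fold change 2.67 ± 0.30, SE, adjusted p = 0.0114). The lowest FrE library was above the highest FrB library. Of the 28 members of the quiescence and FOXO list, all tested, Btg1 and Klf2 rose and 0 fell (0.371% and 0.133% over all genes), 7 lay wholly above FrB and 2 wholly below (3.37% and 4.87% over all genes), and the median was 0.48 (-0.88 with ERCC scaling). Slfn2, which is needed for lymphocyte quiescence, had 229.9 to 448.9 CPM in FrE and 64.8 to 141.9 CPM in FrB (1.78 ± 0.35, adjusted p = 0.0645).

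Among the parts of the B cell receptor and its precursor form, Cd79b rose and Vpreb2 fell. Cd79b, one of the CD79 chains (ENSMUSG00000040592, chromosome 11, 106311341 to 106314762, minus strand), had 11760.3, 7245.3, 9050.6, 5943.0 and 5868.3 CPM in FrE, against 2251.0, 2254.5, 1982.9, 2617.2 and 2341.2 CPM in FrB (log2 fold change 1.77 ± 0.29, SE, adjusted p = 0.0386). FrB values lay within a narrow band and every FrE library was above it. Its partner Cd79a had 12019.1, 7783.2, 8438.9, 6439.3 and 1520.9 CPM in FrE, against 3336.3 to 4025.0 CPM in FrB. FrE of mouse 7 lay below FrB, and the change was 0.75 ± 0.42 (adjusted p = 0.509), or 1.19 without mouse 7 (adjusted p = 0.0684) and -0.62 with ERCC scaling.

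Vpreb2 (ENSMUSG00000059280, chromosome 16, 17980428 to 17981273, plus strand), a surrogate light chain gene, had 0.09, 40.0, 0.16, 0.32 and 0.44 CPM in FrE, against 168.6, 196.4, 142.7, 223.2 and 209.1 CPM in FrB. Only FrE of mouse 2 held more than 1 CPM, and it too lay below FrB (log2 fold change -8.64 ± 1.41, SE, adjusted p = 0.0386). The call was lost without the block by mouse (-4.51, adjusted p = 0.14) and with all 20 WT libraries and no block (-4.51, adjusted p = 0.088). Vpreb1 had 0.78, 272.2, 51.2, 12.6 and 1.77 CPM in FrE, against 1062.1 to 1653.9 CPM in FrB (-6.85 ± 1.46, adjusted p = 0.0855). Igll1, which encodes the λ5 chain, had 1.20, 856.0, 112.1, 5.37 and 6.41 CPM in FrE, against 2358.1 to 2852.2 CPM in FrB (-7.38 ± 1.64, adjusted p = 0.0945). Both were lower in 5 of 5 mice with no overlap, and mouse 2 was again the highest FrE library. Vpreb3, whose product binds receptor chains inside the cell and is not part of the surrogate chain, had 1676.9 to 3371.4 CPM in FrE and 1281.9 to 2159.8 CPM in FrB (0.64 ± 0.31, adjusted p = 0.439). Of the 6 genes in this list, all tested, 1 rose and 1 fell (0.371% and 0.133% over all genes).

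Vpreb1 and Vpreb2 are near-identical copies, so the split of reads between them is uncertain. Their RefSeq promoters (GRCm38.p6, the 250 bases before the start, 5′ to 3′) show the likeness, with capitals for the E-box CAGGTG, a sequence that E proteins such as TCF3 recognise (CACCTG on the other strand).
Vpreb1 (chr16:16869256-16869505, minus strand): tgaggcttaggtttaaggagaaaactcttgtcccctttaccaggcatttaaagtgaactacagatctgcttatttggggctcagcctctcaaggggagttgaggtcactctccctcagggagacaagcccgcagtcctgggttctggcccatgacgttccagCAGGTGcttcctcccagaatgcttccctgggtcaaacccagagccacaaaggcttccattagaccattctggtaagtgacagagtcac
Vpreb2 (chr16:17980315-17980564, plus strand): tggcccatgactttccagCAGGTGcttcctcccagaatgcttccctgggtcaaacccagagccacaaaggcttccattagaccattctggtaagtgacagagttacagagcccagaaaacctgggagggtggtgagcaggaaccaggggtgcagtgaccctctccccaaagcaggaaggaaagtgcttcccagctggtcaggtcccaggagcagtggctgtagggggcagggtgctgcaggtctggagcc
The longest run common to both 300-base promoters was 91 bases, and the shared E-box lay 88 bases before the RefSeq start of Vpreb1 and 232 bases before that of Vpreb2. The bases printed for Vpreb2 run past the gene start given above, which is from GENCODE, so its distance depends on the annotation. This E-box was present in 4 of the 5 list members with a promoter in RefSeq (80.0%), against 16.6% of all genes tested and 20% of all promoters. Vpreb1 and Vpreb2 share their site, so these 4 are not separate observations. The list also holds Cd79a, Cd79b and Vpreb3, whose log2 fold changes lay above 0. The matches describe the sequence and not a bound factor or a cause.

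Of the recombination genes, Rag2 and Dntt fell. Rag2, a subunit of the V(D)J recombinase (ENSMUSG00000032864, chromosome 2, 101624718 to 101632529, plus strand), had 0.23, 9.55, 3.44, 8.89 and 3.53 CPM in FrE, against 147.0, 206.3, 136.1, 203.8 and 172.3 CPM in FrB (log2 fold change -5.55 ± 0.79, SE, adjusted p = 0.0223). All FrE libraries were far below all FrB libraries. Dntt, the terminal transferase that adds untemplated bases at heavy chain junctions (ENSMUSG00000025014, chromosome 19, 41029275 to 41059525, plus strand), had 9.12, 79.3, 0.10, 0.26 and 1.10 CPM in FrE, against 1203.1, 943.4, 442.8, 1058.9 and 1709.3 CPM in FrB (-9.08 ± 1.47, adjusted p = 0.0386). That call was lost without the block (-5.89, adjusted p = 0.0632) and with all 20 WT libraries and no block (-5.89, adjusted p = 0.0539). Mouse 2 was the highest FrE library here too. Rag1, the catalytic partner of Rag2, had 0.05 to 13.2 CPM in FrE and 25 to 65.7 CPM in FrB (-3.73 ± 1.22, adjusted p = 0.218).

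Of the 17 genes of the recombinase and end joining list, all tested, 2 fell and 0 rose (0.133% and 0.371% over all genes), and the median was -0.74. Next by p came Hmgb1 and Hmgb2, DNA-bending proteins that assist the recombinase and are also abundant in dividing cells, at -2.08 and -2.14 (adjusted p = 0.121 and 0.140).

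Among the 22 pro-B and progenitor genes 19 were tested, Gfra2 fell and Ly6d rose (0.133% and 0.371% over all genes). Gfra2, a receptor for GDNF family ligands, had 0.05, 1.5, 0, 0 and 0 CPM in FrE, against 81.9, 56.6, 51.0, 64.9 and 75.6 CPM in FrB (log2 fold change -9.83 ± 1.48, SE, adjusted p = 0.0285, and -7.60, adjusted p = 0.0111, without the block). Arpp21, a cAMP-regulated phosphoprotein gene, had 1 count over the 5 FrE libraries and 3463 over the 5 FrB libraries, so its FrE level was 0.0272% of that in FrB (95% exact interval 0.000689% to 0.152%, which covers counting error only, adjusted p = 0.0154). FrB values of Arpp21 ran from 26.2 to 55.4 CPM. Kit, the receptor for stem cell factor, was at 0 in 4 FrE libraries and at 1.55 CPM in that of mouse 7, against 6.62 to 53.6 CPM in FrB (adjusted p = 0.0878, and 0.032 without mouse 7).

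IL-7 pathway genes gave a mixed picture in which 0 of 17 tested members, of 20 in the list, passed edgeR's test (2 higher and 5 lower at an unadjusted p under 0.05, 1 and 6 called by DESeq2, 2 and 4 by voom). Over all genes these shares were 4.85% higher and 7.96% lower at an unadjusted p under 0.05, 3.54% and 9.75% by DESeq2 and 2.03% and 2.51% by voom. Il7r, a chain of the IL-7 receptor, had 29.7, 61.2, 26.6, 29.0 and 3.75 CPM in FrE, against 196.7, 175.6, 209.9, 204.0 and 204.3 CPM in FrB (log2 fold change -3.04 ± 0.61, SE, adjusted p = 0.0672, and -2.52, adjusted p = 0.0166, without mouse 7). FrB was even and all FrE libraries lay below it. Cish and Socs2, feedback inhibitors that STAT5 induces, were lower in 5 of 5 mice. Cish had no count in FrE and 1140 counts in FrB, at least 403-fold lower by the floor of 3 counts over the group (adjusted p = 0.139). Socs2 had 0.88 to 45.8 CPM in FrE and 55.1 to 100.7 CPM in FrB (-2.76 ± 0.80, adjusted p = 0.176). Ccnd3, the cyclin D of dividing pre-B cells, had 145.8 to 513.4 CPM in FrE and 535.4 to 1405.5 CPM in FrB (-1.83 ± 0.44, adjusted p = 0.121), whereas Ccnd2 had 438.7 to 2073.3 CPM in FrE and 255.7 to 403.0 CPM in FrB (1.29 ± 0.46, adjusted p = 0.268). Among survival genes of the BCL2 family, Mcl1 had 446.0 to 539.4 CPM in FrE and 136.8 to 212.9 CPM in FrB (1.53 ± 0.30, adjusted p = 0.0626). Bcl2l1, which encodes BCL-XL, had 11.2 to 23.3 CPM in FrE and 39.7 to 90.5 CPM in FrB (-1.99 ± 0.58, adjusted p = 0.176).

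Cell division genes formed the broadest downward group, although edgeR's test called 0 of them singly after adjustment. All 46 genes of the G2/M and mitosis list were tested and all 46 had a log2 fold change below 0, 34 of them with all FrE libraries below all FrB libraries (4.87% over all genes), and the median was -2.55. Their summed level was 5652.6, 7129.2, 1819.6, 1165.1 and 2111.5 CPM in FrE, against 13818.2, 12674.4, 14905.6, 10242.8 and 14731.1 CPM in FrB. The groups did not overlap, and FrE of mice 1 and 2 held more than the other FrE libraries. At an unadjusted p under 0.05 edgeR had 44 of the 46 lower and 0 higher, against 7.96% lower over all genes. DESeq2 called all 46 lower, against 9.75% over all genes, and voom 22, against 2.51%. With all 20 WT libraries in the edgeR fit 17 of the 46 passed, all lower (1.47% over all genes), and 8 did without mouse 7 (0.756%).

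Cdc20, an activator of the anaphase-promoting complex, had 114.1, 44.8, 38.1, 54.9 and 13 CPM in FrE, against 504.9, 313.4, 427.3, 170.9 and 514.9 CPM in FrB (log2 fold change -3.00 ± 0.54, SE, adjusted p = 0.0515). The fractions did not overlap. Mki67, the proliferation marker Ki-67, had 38.2 to 178.3 CPM in FrE and 418.7 to 574.8 CPM in FrB (-2.21 ± 0.42, adjusted p = 0.0567). Racgap1 and Ndc80, for cytokinesis and the kinetochore, stood at -3.25 and -2.56 (adjusted p = 0.0665 and 0.0755). Kif22, a mitotic kinesin outside the list, fell: it had 73.0, 66.7, 50.3, 29.8 and 64.7 CPM in FrE, against 232.8, 196.1, 295.0, 144.4 and 317.2 CPM in FrB (-2.05 ± 0.36, adjusted p = 0.048). Ccnb1, Plk1 and Ube2c had log2 fold changes of -3.85, -3.64 and -4.03 (adjusted p = 0.157, 0.111 and 0.176), and the 5 FrE libraries of Ube2c spread from 5.96 to 612.6 CPM.

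Many mitotic genes carry a CHR element near their start, through which repressor complexes act in resting cells. Promoters of Cdc20, Kif22 and Mki67 are shown (RefSeq, GRCm38.p6, the 250 bases before the start, 5′ to 3′), with capitals for the CHR letters TTTGAA in either orientation (TTCAAA on the other strand).
Cdc20 (chr4:118437344-118437593, minus strand): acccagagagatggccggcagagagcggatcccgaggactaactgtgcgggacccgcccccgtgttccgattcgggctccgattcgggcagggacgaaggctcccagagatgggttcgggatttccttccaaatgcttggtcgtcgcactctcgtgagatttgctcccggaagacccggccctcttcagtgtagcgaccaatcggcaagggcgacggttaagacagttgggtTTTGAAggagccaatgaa
Kif22 (chr7:127042421-127042670, minus strand): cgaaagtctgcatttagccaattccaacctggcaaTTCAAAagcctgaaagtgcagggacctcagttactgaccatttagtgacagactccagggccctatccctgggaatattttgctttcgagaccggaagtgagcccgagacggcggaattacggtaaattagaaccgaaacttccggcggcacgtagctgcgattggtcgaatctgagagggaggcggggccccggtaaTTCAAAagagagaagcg
Mki67 (chr7:135716380-135716629, minus strand): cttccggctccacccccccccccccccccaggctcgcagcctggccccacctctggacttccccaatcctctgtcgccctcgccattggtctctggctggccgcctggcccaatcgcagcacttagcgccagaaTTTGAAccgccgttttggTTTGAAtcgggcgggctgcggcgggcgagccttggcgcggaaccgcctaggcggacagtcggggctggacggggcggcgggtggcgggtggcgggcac
The match lay 18 bases before the start in Cdc20, 215 and 17 bases before it in Kif22 and 116 and 98 bases before it in Mki67. The letters were present in the 300-base promoter of 28 of the 37 list members with a promoter in RefSeq (75.7%), against 12.3% of all genes tested and 18.1% of all promoters. In the G1/S and DNA replication list, 17 of 35 promoters (48.6%) held one of the E2F sequences TTTCCCGC, TTTGGCGC or TTCCCGCC on either strand, against 6.52% of all genes tested and 3.31% of all promoters.

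The G1/S and DNA replication list had a median of -1.86, with 40 of 42 tested members below 0, 11 wholly below FrB (4.87% over all genes) and 0 called by edgeR. At an unadjusted p under 0.05 edgeR had 23 lower and 1 higher, DESeq2 called 24 lower and voom 7 lower, against 7.96%, 4.85%, 9.75% and 2.51% over all genes. Tyms, thymidylate synthase, had 21.4 to 161.7 CPM in FrE and 339.5 to 432.3 CPM in FrB (log2 fold change -2.55 ± 0.49, SE, adjusted p = 0.0624). Rrm2, Pcna and Chaf1b, which serve nucleotide supply, the replication clamp and chromatin assembly, stood at -2.55, -2.07 and -2.79 (adjusted p = 0.106, 0.107 and 0.127). FrE of mouse 2 held 743.4 CPM of Pcna, against 52.6 to 270.4 CPM in the other FrE libraries and 846.2 to 963.8 CPM in FrB.

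Growth genes linked to MYC lay mostly below 0. Srm, spermidine synthase and a direct MYC target (ENSMUSG00000006442, chromosome 4, 148591503 to 148594993, plus strand), had 45.9, 164.1, 85.4, 83.7 and 32.5 CPM in FrE, against 347.4, 444.7, 400.0, 215.5 and 273.5 CPM in FrB (log2 fold change -2.18 ± 0.39, SE, adjusted p = 0.0486, but 0.0957 with all 20 WT libraries and no block). Mouse 2 was highest in both fractions, and they did not overlap. Srm was the 1 gene called of 28 tested in the list of 30 (0.133% lower over all genes), and 26 of the 28 lay below 0 at a median of -0.83. Myc itself had 60.7, 30.4, 85.0, 105.1 and 4.42 CPM in FrE, against 282.2, 220.7, 280.8, 116.1 and 162.5 CPM in FrB (-2.34 ± 0.67, adjusted p = 0.173). Tfrc, the transferrin receptor, and Paics, of purine synthesis, stood at -1.80 and -1.27 (adjusted p = 0.137 and 0.166). Cytosolic ribosomal proteins, with 79 tested, lay at a median of -0.07 with 0 called, nuclear subunits of oxidative phosphorylation at -0.29 with 0 of 80 called, and proteasome subunits at -0.53 with 0 of 37 called. At an unadjusted p under 0.05 edgeR had 2, 2 and 3 genes of these 3 lists, and DESeq2 called 0, 1 and 0 and voom 0 in each. Over all genes edgeR had 4.85% higher and 7.96% lower at that p, and 0.371% and 0.133% after adjustment. DESeq2 called 3.54% of all genes higher and 9.75% lower, and voom 2.03% and 2.51%.

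Lists of other cell functions gave few calls in FrE against FrB. Early B cell transcription factors had a median log2 fold change of 0.16, ribosome biogenesis -0.41, glycolysis -1.02, cholesterol synthesis -0.39, ER stress and secretion -0.29, the BCL2 family 0.37, zinc transport -0.82, and homing and adhesion 0.02. No member of these 8 lists, of 15 to 42 tested genes each, was called by edgeR. It had 0 to 6 members of each at an unadjusted p under 0.05, while DESeq2 called 1 to 6 and voom 0 to 3. DESeq2 called 6 of 20 zinc transport genes, all lower, and voom 0. In homing and adhesion DESeq2 called 4 higher and 2 lower of 21, and in early B transcription factors 3 higher and 2 lower of 21. Over all genes DESeq2 called 3.54% higher and 9.75% lower and voom 2.03% and 2.51%. At an unadjusted p under 0.05 edgeR had 4.85% higher and 7.96% lower. Interferon response genes lay at 0.45 with Ifi44, lower, as the 1 call of 33 tested (0.133% lower over all genes). Immediate early genes lay at 0.58, with Dusp2 and Cd83 called higher of 20 tested (0.371% higher over all genes).

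**Figure D3:**
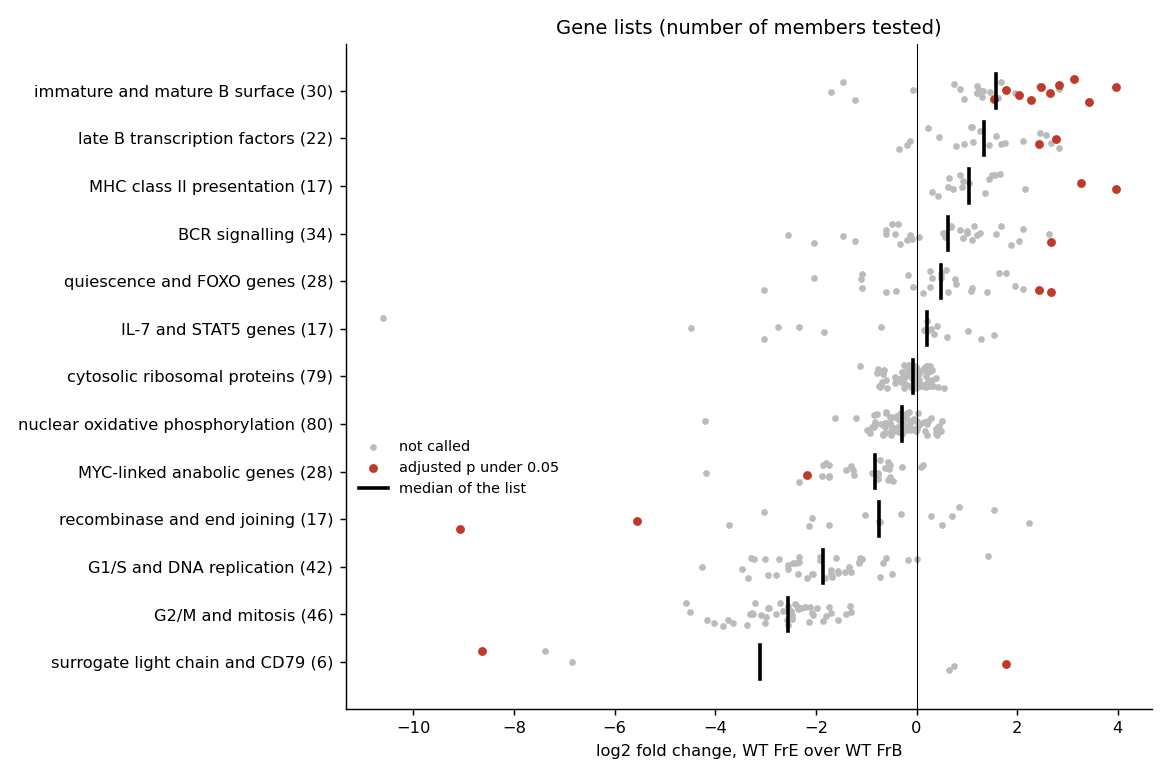
Log2 fold change of FrE over FrB for the tested members of 13 gene lists, 1 point per gene, with called genes in red, other genes in grey and a black bar at each median. Surface receptors sit at a median of 1.57 at the top, ribosomal proteins cluster at -0.07 and G2/M genes lie wholly below 0 at a median of -2.55.

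Signalling and metabolic genes were among the others that rose. Bank1, a receptor adaptor, had 285.8 to 525.9 CPM in FrE and 19.9 to 116.5 CPM in FrB (log2 fold change 2.67 ± 0.38, SE, adjusted p = 0.0223). It was the 1 gene called of the 34 tested members of the BCR signalling list (0.371% higher over all genes). The median of that list was 0.62 (-0.74 with ERCC scaling). Ptpn6 and Lyn, for inhibitory feedback by SHP-1 and its kinase, stood at 2.11 and 1.57 (adjusted p = 0.0653 and 0.0679). Scd1, a fatty acid desaturase, had 531.6, 451.4, 711.2, 528.7 and 909.1 CPM in FrE, against 71.2, 64.3, 77.7, 78.6 and 70.2 CPM in FrB (3.09 ± 0.33, adjusted p = 0.00768). FrB values of Scd1 were nearly level. Klhl14, a Kelch adaptor of B cells, had 66.2 to 203.6 CPM in FrE and 0.92 to 12.8 CPM in FrB (5.41 ± 0.70, adjusted p = 0.0154, and 4.71 without the block).

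Slc34a1, a phosphate transporter of the kidney, had 6.45, 3.76, 0.63, 3.84 and 180.2 CPM in FrE and at most 0.06 CPM in FrB, and its call (adjusted p = 0.0154, and 0.0145 without the block) was lost without mouse 7 (adjusted p = 0.215). The remaining genes that rose were named because they were called, after their values were seen. Dusp2, an immediate early phosphatase, was named as a list member and not for that reason. The others were Slamf9, Cfp, Fam129c, Rasgrp1, Slc28a2, Fam3c, B3gnt5, Rnase6, Sp100, Sh2b3, Srpk3, Fgd2 and Lynx1, each higher in 5 of 5 mice like Dusp2 (2.12), at log2 fold changes of 1.94 to 3.78. Cfp, the complement factor properdin, led these at 3.78 ± 0.56 (adjusted p = 0.0262). The call of Fgd2 was lost with all 20 WT libraries and the block (adjusted p = 0.0641). Ppbp and Myl9 were called too, but Ppbp, a platelet chemokine, rested on 2015.2 CPM in FrE of mouse 3 with 0 to 5.90 CPM in the other FrE libraries. Myl9, a smooth muscle and platelet myosin chain, rested on 334.9 and 251.8 CPM in FrE of mice 3 and 7, with 0 to 2.37 CPM in the other FrE libraries. Both calls were lost without the block (adjusted p = 0.134 for Ppbp and 0.154 for Myl9).

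The remaining genes that fell included Arntl, which encodes the clock factor BMAL1, with 10.6, 132.0, 38.1, 27.7 and 6.18 CPM in FrE, against 451.7, 357.4, 415.1, 309.1 and 394.1 CPM in FrB (log2 fold change -3.94 ± 0.69, SE, adjusted p = 0.0486, and -3.16 without the block). Mouse 2 was the highest FrE library and the fractions did not overlap. Lgals9, a galectin, had 499.7 to 1094.0 CPM in FrE and 2178.6 to 2914.3 CPM in FrB (-1.64 ± 0.29, adjusted p = 0.0486). Gm45837, an annotated model with no given name that was also named after its values were seen, fell by 2.81 ± 0.35 (adjusted p = 0.0154). Rhag, Gstm5, Prss57 and Ifi44 each had 1 count over the 5 FrE libraries and 2663, 1609, 1360 and 1368 counts over the 5 FrB libraries. Rhag belongs to the erythroid membrane and Prss57, named after its values were seen, is a serine protease of granulocytes. The FrE level of Rhag was 0.0354% of that in FrB (95% exact interval 0.000896% to 0.197%), and its FrB level was 1.31 CPM in mouse 7 against 24.8 to 69.2 CPM in the other mice.

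The intermediate fractions show where along the pathway the net change lies. The steps come from a fit of the 20 WT libraries with mouse as a block, in which FrC over FrB had 0 genes higher and 16 lower of 11439 tested (0.0% and 0.14%, by edgeR alone). FrD over FrC had 234 higher (2.05%) and 211 lower (1.84%), and FrE over FrD had 176 (1.54%) and 183 (1.60%). These steps share libraries with each other and with FrE against FrB and the labels' protocols do not spell out how FrC was gated. The FrD library of mouse 3 stood apart. It held 6372181 endogenous counts, against 20256653 to 24638528 in the other FrD libraries, with 25.3% of them in its 50 highest genes (others 16.2% to 18.0%), and 26.7% of its detected genes had 1 to 9 counts (others 9.2% to 13.9%). Its granulocyte and monocyte markers summed to 114619.8 CPM (others 79.6 to 8981.4) and its erythroid markers to 47728.7 CPM (others 156.2 to 10235.7). In a fit without it, chosen after the data were seen, 2 genes were higher (0.017%) and 51 lower (0.434%) in FrC over FrB of 11742 tested, 370 and 344 in FrD over FrC (3.15% and 2.93%) and 245 and 237 in FrE over FrD (2.09% and 2.02%). The part of these markers in the steps was not tested.

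Several surface genes were not at their lowest in FrB. Ms4a1 averaged 658.0, 186.0, 333.1 and 5841.6 CPM in FrB, FrC, FrD and FrE, with steps of -1.81, 0.70 and 4.20 on the log2 scale (edgeR adjusted p = 0.0416, 0.297 and 1.12e-05). Fcmr averaged 715.6, 98.9, 280.1 and 2076.9 CPM, and its first step of -2.80 passed (adjusted p = 0.00229). Cd83 averaged 60.9, 5.96, 25.7 and 356.8 CPM (first step -3.42, adjusted p = 0.00988) and Cd74 4641.7, 1041.4, 2068.0 and 13372.4 CPM (first step -2.11, adjusted p = 0.0385). Without FrD of mouse 3 the FrD means of these 4 genes were 375.5, 324.4, 31.2 and 2487.8 CPM, and their first steps passed too. The class II list as a whole had median steps of -1.63, 1.0 and 1.44, or -1.64, 1.2 and 1.38 without that library. The median summed level of plasma cell markers was 31176.7, 2033.2 and 2662.9 CPM in FrB, FrC and FrD. Erythroid markers had 16229.4, 1880.8 and 221.4 CPM and plasmacytoid dendritic cell markers 1195.7, 122.5 and 674.3 CPM. The medians of T cell, megakaryocyte, and stromal and endothelial markers were not lower in FrC than in FrB. Whether such markers had a part in the steps was not tested. Spib, by contrast, averaged 194.6, 252.1, 817.1 and 1441.9 CPM, and Btg1 gained nearly all of its level at the step into FrD, with 233.6, 194.3, 1460.5 and 1488.9 CPM (second step 2.91, adjusted p = 1.97e-06). Without FrD of mouse 3 the FrD means of Spib and Btg1 were 584.1 and 1385.3 CPM.

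Among genes lower in FrE, Rag2 and Il7r had their highest means in FrD. Rag2 averaged 173.1, 91.0, 264.2 and 5.13 CPM in FrB, FrC, FrD and FrE, with a last step of -5.85 (edgeR adjusted p = 0.000359). Il7r averaged 198.1, 284.5, 590.1 and 30.0 CPM (last step -4.27, adjusted p = 0.000359). Without FrD of mouse 3 the FrD means were 326.6 and 705.1 CPM and the last steps -6.27 and -4.58 (adjusted p = 3.58e-05 and 8.63e-05). The FrD maximum did not hold in mouse 3, whose FrD library had 14.6 CPM of Rag2 and 130.1 CPM of Il7r, against 299.1 to 353.8 CPM and 557.5 to 904.5 CPM in the other FrD libraries. Vpreb1 was already low in FrD, at 1374.6, 1056.2, 83.5 and 67.7 CPM (second step -3.67, adjusted p = 0.0394, but -3.50, adjusted p = 0.0845, without FrD of mouse 3), and Dntt averaged 1071.5, 227.4, 23.2 and 18.0 CPM. Myc averaged 212.5, 281.0, 4.25 and 57.1 CPM, so that FrE lay above FrD (last step 4.20, adjusted p = 0.0169) and below FrB. The G2/M list had median steps of 0.36, -0.42 and -2.21, or 0.36, -0.48 and -2.16 without FrD of mouse 3.

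**Figure D4:**
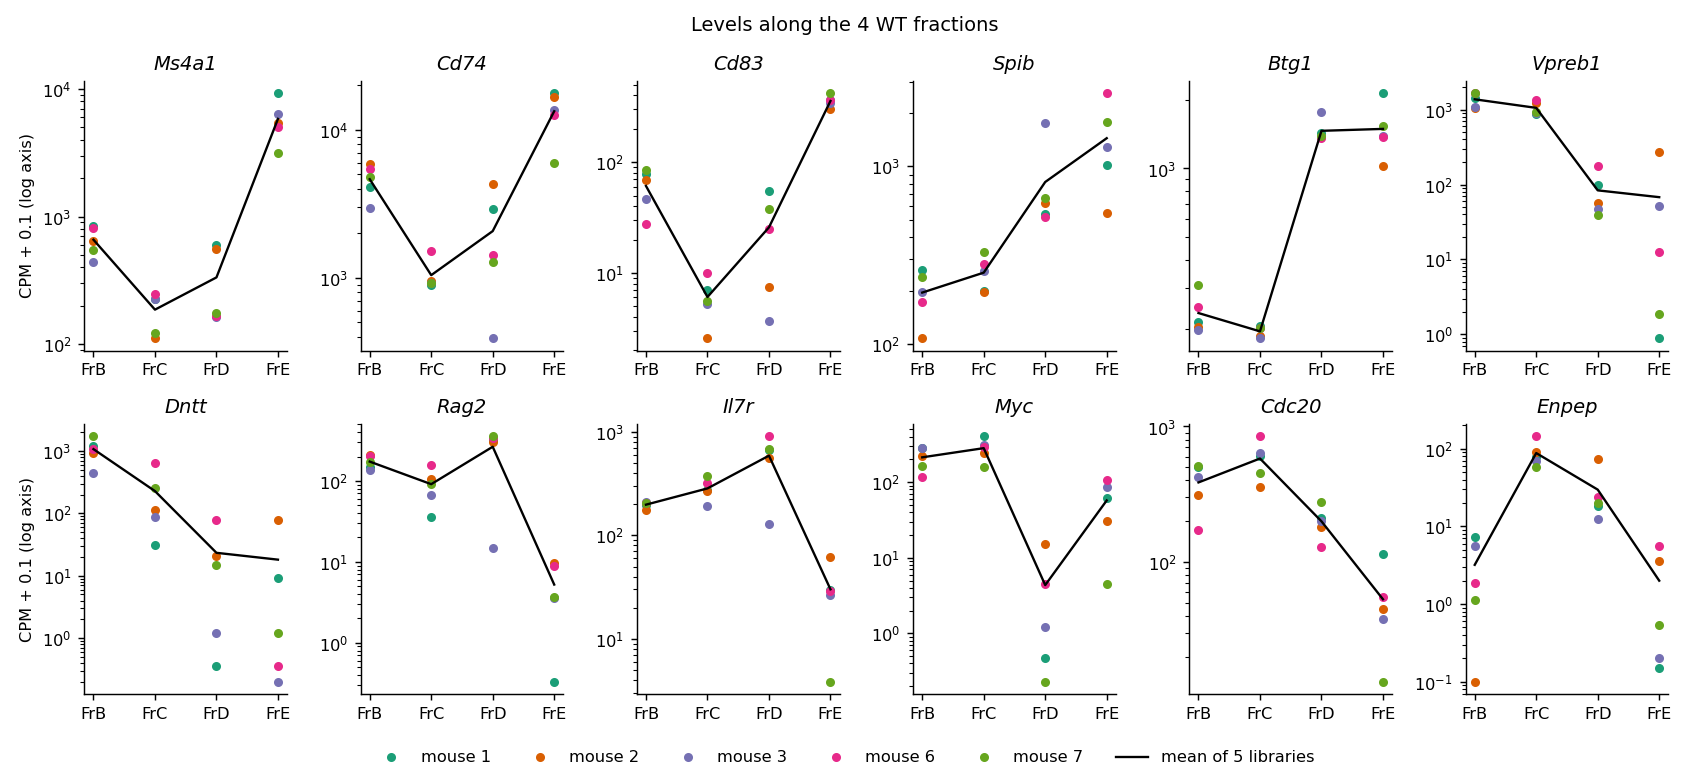
CPM + 0.1 on a log axis for 12 genes in the 4 WT fractions in developmental order, with 5 libraries per fraction as points coloured by mouse and a line through the means. Ms4a1, Cd74 and Cd83 dip in FrC before their maximum in FrE, the means of Rag2 and Il7r peak in FrD at 264.2 and 590.1 CPM, and Enpep peaks in FrC at 88.1 CPM.

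Markers of other cells differed between the fractions and between mice, and their part in the results above was not tested. Plasma cell markers, 15 of 15 in the table, summed to 2910.6 to 27256.9 CPM in FrE and 18543.3 to 57558.2 CPM in FrB. Jchain, the joining chain of secreted immunoglobulin, had 8.47, 21700.6, 5236.7, 12584.8 and 2337.3 CPM in FrE, against 15886.5, 31643.8, 25486.0, 49432.5 and 13548.3 CPM in FrB (adjusted p = 0.364). The fractions overlapped, and FrE was lower in each mouse. Erythroid markers, 14 of 14 in the table, summed to 88.5, 216.6, 664.0, 48.9 and 26229.1 CPM in FrE, against 17458.8, 7170.6, 16229.4, 24725.5 and 2109.7 CPM in FrB. FrE was lower except in mouse 7, where it was higher, and Hbb-bs alone held 9921.3 CPM there. All 13 members tested had a log2 fold change below 0, at a median of -6.63, and 1 was called lower (0.133% over all genes). At an unadjusted p under 0.05 edgeR had 12 lower, DESeq2 called 12 lower and voom 6 (7.96%, 9.75% and 2.51% over all genes). Without mouse 7 edgeR called 8 of the members lower (0.756% over all genes). Rhag, the called erythroid gene, had no count in FrE of mouse 7 and its single FrE count in mouse 3.

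Granulocyte and monocyte markers, 22 in the table, summed to 73.4 to 6639.3 CPM in FrE and 209.8 to 12744.1 CPM in FrB, and the highest FrE library was that of mouse 3, with 4905.9 CPM of Lyz2. The same library held the megakaryocyte markers, at a sum of 3467.9 CPM against 1.93 to 49.5 CPM in other FrE libraries, and basophil, mast cell and eosinophil markers, at 4881.6 CPM against 2.21 to 186.5 CPM. These go beside the calls of Ppbp and Myl9. Stromal and endothelial markers summed to 6391.4 CPM in FrE of mouse 7, against 69.6 to 228.4 CPM in the other FrE libraries and 42.6 to 82.1 CPM in FrB. NK cell markers summed to 2.37 to 12.5 CPM in FrE and 14.2 to 310.4 CPM in FrB, and Nkg7 had 0.06 to 2.82 CPM in FrE and 7.69 to 146.3 CPM in FrB. Of the 11 NK cell markers 3 were at 0 in all FrE libraries and 0 in all FrB libraries. T cell markers summed to 20.9 to 243.2 CPM in FrE and 164.4 to 250 CPM in FrB, so the fractions overlapped. Lck, Lat and Cd28 had 71.6, 42.5 and 18.0 CPM of the 137.3 CPM in FrE of mouse 3. In FrB of mouse 2 they had 86.0, 30.4 and 45.1 CPM of the 164.4 CPM. Cd28 was also counted with plasma cell markers, so the sum is not specific to T cells. Cd3e had 0 to 2.05 CPM in FrB. FrE of mouse 7 had the highest sum in FrE, with 233.0 CPM of Cd3g. Of the 15 T cell markers 3 were at 0 in all FrE libraries, among them the defining Cd3e and Cd8a, and 1, Bcl11b, in all FrB libraries.

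Plasmacytoid dendritic cell markers, 12 in the table, summed to 302.2 to 845.5 CPM in FrE and 521.8 to 1759.5 CPM in FrB. Markers of B-1, memory and germinal centre B cells, 13 in the table, summed to 140.0 to 742.9 CPM in FrE and 350.6 to 618.4 CPM in FrB. Within them Zbtb32 was lower in 5 of 5 mice, at 0 to 10.2 CPM in FrE and 15.6 to 43.1 CPM in FrB (adjusted p = 0.176). FrE of mouse 2 was the FrE library with the most Vpreb1, Igll1, Dntt and Pcna RNA, and the ratio of FrE to FrB was nearest to 1 in that mouse for each of these 4 genes.

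**Figure D5:**
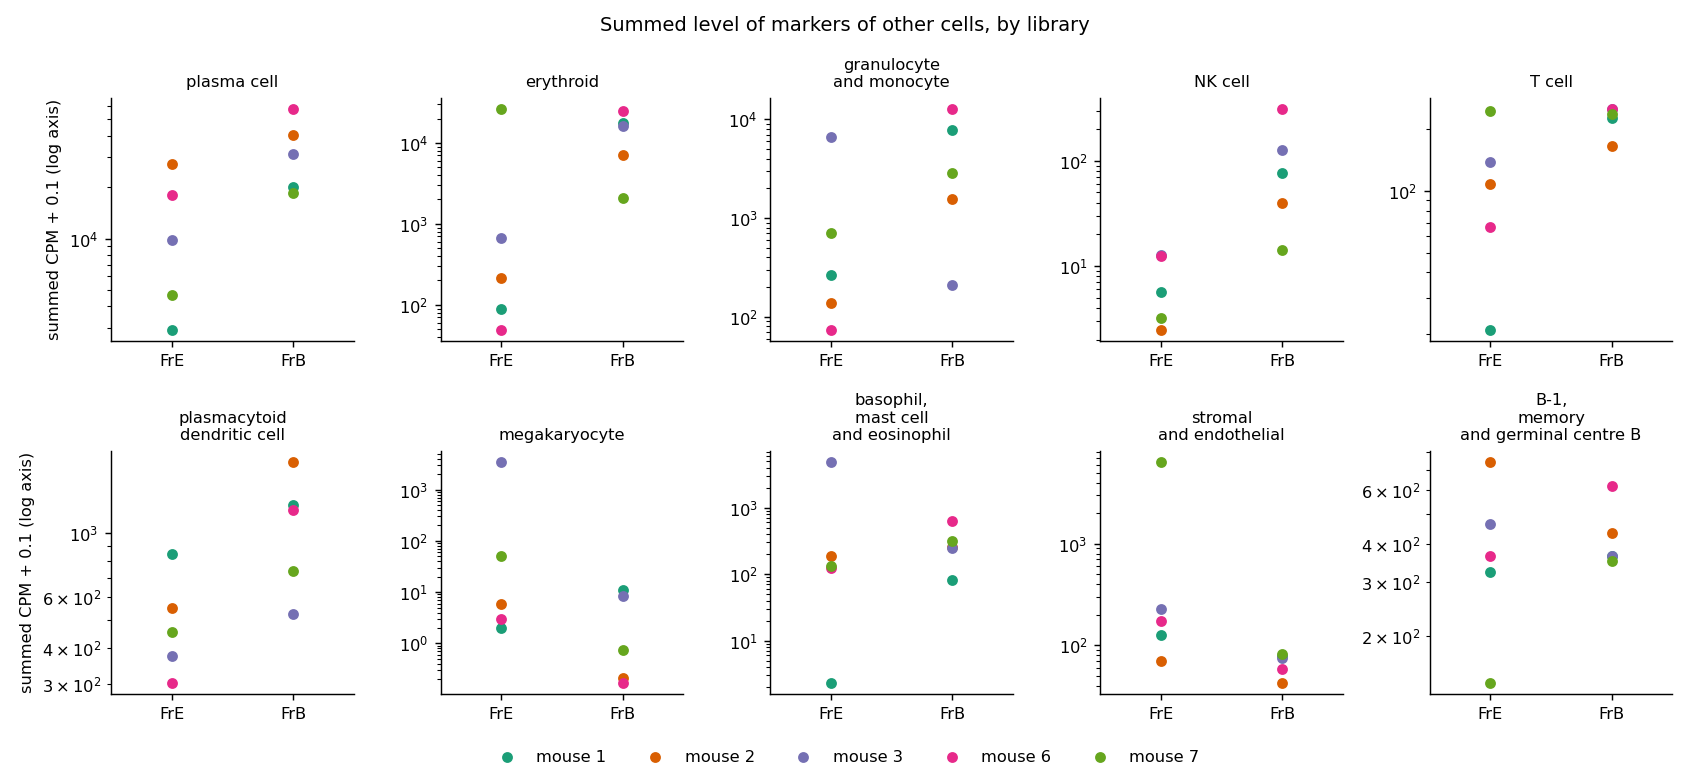
Summed CPM + 0.1 on a log axis of 10 marker lists of other cells in FrE (left) and FrB (right), 1 point per library coloured by mouse. Plasma cell sums run from 2910.6 to 27256.9 CPM in FrE and from 18543.3 to 57558.2 CPM in FrB, while FrE of mouse 3 stands out for megakaryocyte and basophil markers and FrE of mouse 7 for erythroid and stromal markers.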

How the data were processed

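Per the labels' protocols, 100 sorted cells per library were lysed and amplified with Smart-seq2. The deposited table holds raw read counts per Ensembl gene for 40 libraries, with ERCC spike-ins; the submitters' processing notes name HISAT2 2.1.0, featureCounts 1.4.6, DESeq2 and the genome build mm10. No source used here states which annotation the reads were counted against or whether strand was used, so overlapping, antisense and near-identical genes are uncertain. Of 21958 gene rows, 21728 matched GENCODE M21, which gave symbols and GRCm38 (mm10) coordinates; the other 230 held 0.0325% of the counts.

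From these counts, edgeR 4.0.16 (R 4.3.3) fitted a robust quasi-likelihood model to the 5 FrE and 5 FrB libraries with mouse as a block, TMM factors and filterByExpr (minimum count 10, total 15). All p-values of single genes are from this test, two-sided, Benjamini-Hochberg adjusted over all genes tested, called under 0.05. Libraries of 1 number come from 1 mouse per the labels. The correlations of their deviations from the fraction means were 0.047, 0.068, -0.064, -0.084 and 0.006 for mice 1, 2, 3, 6 and 7. The highest correlation of each FrB library with FrE of another mouse was 0.02, 0.007, 0.034, 0.057 and 0.087. It was above the same-mouse value in mice 3, 6 and 7, so the block rests on the labels. CPM used TMM sizes over the 20 WT libraries. Library measures were tested by exact permutation. Intervals and the floor of 3 counts cover counting error only, since reads had no molecular identifiers. On simulated counts, 16.7% of genes changed by 2 on the log2 scale and 64.6% of those changed by 4 were recovered (96 of each), with 4 false calls of 10076.

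Genes were named as follows: the 15 of lowest p in each direction with 5 of 5 mice and at least 20 CPM in the higher fraction, without unnamed models; key genes of each list; and the 4 list members of lowest p. Members and lists were chosen with earlier results of these data known. Alternatives were no block, all 20 WT libraries, DESeq2 1.42.0 or its size factors, ERCC scaling, limma 3.58.1 voom, other filters (none, minimum count 50), each mouse left out, each index set alone and, added after the data were seen, the FrD library of mouse 3 left out of the steps between fractions. A few genes are not reported here.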

Additional observations from a re-analysis of the deposited data

Results flagged for a closer look

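Of 222 sets of 5 values examined, 24 held a sample far from the other 4. The nominal chance rate of about 5% does not hold where 4 libraries are at 0, since any count in the remaining library is then flagged. The number of flags is therefore not compared with that rate. The values below are CPM except where stated. In FrE, mouse 7 stood low for H2-Ab1 (1012.9, others 3112.6 to 4141.9) and Tfrc (10.2, others 63.1 to 109.3). FrE of mouse 2 stood high for Vpreb2 (40.0, others 0.09 to 0.44) and Gfra2 (1.5, others 0 to 0.05). FrE of mouse 1 stood low for Jchain (8.47, others 2337.3 to 21700.6), and FrE of mouse 3 high for Cd5 (0.68, others 0 to 0.06). A lone FrE library had counts of Kit (mouse 7, 1.55), Arpp21 (mouse 7, 0.22), Rhag (mouse 3, 0.05), Gstm5 (mouse 3, 0.05), Prss57 (mouse 1, 0.05) and Ifi44 (mouse 6, 0.06).

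In FrB, mouse 6 stood apart most often, high for Ptprc (485.6, others 258.0 to 272.8) and low for Fcmr (512.5, others 740.7 to 786.1), Ccnb1 (336.8, others 741.1 to 877.2) and Ndc80 (133.3, others 182.3 to 194.1). Its 50 highest genes held 21.32% of the counts, against 15.99% to 17.17% in the other FrB libraries. FrB of mouse 7 stood low for Rhag (1.31, others 24.8 to 69.2) and Gstm5 (1.82, others 19.5 to 36.6), and alone had a count of Slc34a1 (0.06). FrB of mouse 3 stood low for H2-DMb2 (164.4, others 276.8 to 329.3) and Lyz2 (83.7, others 748.9 to 1717.2) and high for Ppbp (3.28, others 0 to 0.08). FrB of mouse 2 stood low for Cd22 (31.2, others 63.1 to 78.4).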

How the results depend on the processing

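The direction of the 52 called genes described here held in all 821 combinations of gene and setting that gave a value, and 326 of these missed the threshold. The counts of calls, 39 higher and 14 lower, moved widely: 169 and 90 without the replicate block, 164 and 168 with 20 WT libraries and the block, 247 and 187 with 20 WT libraries without it, 373 and 1026 with DESeq2, 214 and 264 with voom, 60 and 26 with no filter on low counts, and 22 and 4 with a minimum count of 50. DESeq2 size factors gave 39 and 17. Leaving out 1 mouse gave 0 to 126 higher and 0 to 80 lower, lowest without mouse 3 and highest without mouse 7, and fewer libraries also leave fewer degrees of freedom. Mice 1, 3 and 7 alone gave 0 and 0, and mice 2 and 6 alone 10 and 52. Of all 53 called genes, 51 were also called with 20 WT libraries and the block, 49 without mouse 7 and 49 without the block. Without the block the log2 endogenous to ERCC difference of -1.21, the difference of -998 genes detected and that of 2.73 percentage points in the 50 highest genes passed, as the unpaired exact test can go lower.

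With ERCC scaling 15 genes rose and 2011 fell, around a median of -1.66 over all genes in place of -0.28. Below 0 there, unlike with TMM, were Cd24a (-1.1), H2-Aa (-0.43), H2-Ab1 (-0.73), H2-Eb1 (-0.63), Cd79a (-0.62), Ccnd2 (-0.1) and Vpreb3 (-0.71), and the medians of the gate genes (-0.63), late B transcription factors (-0.02), MHC class II (-0.3), BCR signalling (-0.74), quiescence (-0.88) and immediate early genes (-0.84), all above the median of all genes. The median of ribosome biogenesis was 0.07 without the block and 0.01 with 20 WT libraries and no block. Enpep ranged over -3.15 to 0.33 with 1 mouse left out and was 4.27 with mice 2 and 6 alone. In the fit without FrD of mouse 3, added after the data were seen, the counts for FrC over FrB and FrD over FrC moved by over 1.5 times. The cause of these changes was not tested beyond what is stated. Depth limits genes near 0 in FrE: 5 called genes rest on 1 FrE count each. A change of 2 on the log2 scale was mostly missed in simulated counts. The changed genes there were drawn from all levels, so this does not measure an effect of depth.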
